A study of Mus musculus with 2 samples.

Results

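The CCR4-NOT complex is the main cytoplasmic deadenylase of animal cells: it shortens the poly(A) tail of mRNAs, the usual opening step of their decay. The 10 genes described here encode its subunits Cnot1, Cnot2, Cnot3, Cnot4, Cnot6, Cnot6l, Cnot7, Cnot8, Cnot10 and Cnot11. They were chosen by name among 21762 coding genes, with earlier results of these data known. A listed m6A site belonged to a gene when it lay on the same strand within an annotated exon. The 10 genes held 250 of the 160430 unique positions (chromosome, base and strand) in all lists. N6-methyladenosine (m6A) is written onto mRNA by the Mettl3–Mettl14 methyltransferase, mostly within the motif RRACH (R is a purine and H any base but G). The reader protein Ythdf2 is known to bring CCR4-NOT to methylated transcripts. The positions below lie in the mRNAs that encode the complex itself.

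Within the complex, Cnot1 is the scaffold on which the other subunits assemble. Cnot7 and Cnot8 are paralogous Caf1-type deadenylases, and Cnot6 and Cnot6l are paralogous Ccr4-type deadenylases that bind to them. Cnot2 and Cnot3 form the NOT module at one end of Cnot1, Cnot10 and Cnot11 form a module at the other end, and Cnot4 is a RING-type ubiquitin ligase.

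Poly(A) RNA of mouse 129 embryonic stem cells was sequenced as native RNA (Oxford Nanopore direct RNA sequencing, DRS) to compare computational tools that map m6A. There was 1 wild-type (WT) library and 1 Mettl3 knockout (KO) library. In the KO cells, CRISPR–Cas9 editing had exchanged exons 5 to 7 of Mettl3 for genes that give resistance to puromycin and hygromycin. Cells were then selected with both drugs, and colonies with both alleles disrupted were kept. The labels do not say how many colonies the KO library came from. The authors deposited 17 lists. Tombo, MINES, Nanom6A, m6Anet, ELIGOS and Epinano (single-mode tools) and the compare-mode tool xPore listed positions separately for WT and for KO. The lists of Nanocompore, DiffErr and DRUMMER, called comparison lists here, hold positions that differed between the libraries. By mass spectrometry the study found KO mRNA to be nearly free of m6A. It proposes that many positions listed in KO by single-mode tools are false positives. A KO listing below means only that a tool listed the position in the KO library. The lists hold positions without scores, methylation rates or read numbers, so the depth behind each position is unknown, and fewer reads of a transcript cannot be told apart from less methylation. With 1 library per condition nothing could be tested across replicates. All shares below describe these 2 libraries, and their 95% intervals (exact Clopper-Pearson) cover counting error only.

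Mettl3 had 2 WT positions and 0 KO positions within the replaced exons, and 13 and 5 in the whole gene. All 8 stem cell markers examined (such as Pou5f1, Sox2 and Nanog) had listed positions in both libraries. Of 5 fibroblast markers, Thy1 had 3 positions in WT and 1 in KO, Col1a1 had 0 and 3, and Col1a2, Col3a1 and Postn had none. Among 4 extraembryonic endoderm markers only Sox17 was listed, with 12 positions in WT and 0 in KO. The part of other cells in the results below was not tested.

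The sequences that carry the results are those of the positions with the widest support, meaning the most of the 10 tools in a WT or comparison list. Each is shown as 21 nt of spliced mRNA sense in DNA letters, read 5′ to 3′ from the GRCm38 genome along the transcript, with the listed A in the middle and the RRACH 5-mer in capitals. The first set is the 9 positions of the complex listed by at least 5 tools:
Cnot8, chr11:58117533, plus strand, 10 tools: gaggatgtGGACTgtgcccag
Cnot8, chr11:58117653, plus strand, 7 tools: ccaagcagAGACTttggcttt
Cnot8, chr11:58117789, plus strand, 6 tools: ggccccatGGACActttttta
Cnot7, chr8:40492756, minus strand, 6 tools: gaagtgatGGACTacaagttg
Cnot7, chr8:40492849, minus strand, 5 tools: ttgacaagAGACTgtgaaata
Cnot7, chr8:40493608, minus strand, 5 tools: aagattgtGGACCatcaagtt
Cnot7, chr8:40507532, minus strand, 5 tools: tccagctcGGACTgaccttta
Cnot1, chr8:95752621, minus strand, 5 tools: ttgaaaaaGGACTggtcactt
Cnot11, chr1:39545139, plus strand, 5 tools: aacgtgcaGGACTtgtttata

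The second set shows the positions that led the other listed genes, where no position reached 5 tools. Where positions were tied (Cnot2 and Cnot10), the first in genomic order is shown:
Cnot2, chr10:116485404, minus strand, 3 tools: tgaaaatgGGACAttctggaa
Cnot3, chr7:3660901, plus strand, 3 tools: gccctggaAGACTgggggagg
Cnot6, chr11:49673592, minus strand, 3 tools: ttatacagAGACTgagccatt
Cnot6l, chr5:96076273, minus strand, 2 tools: tcgtgcccAAACTtttatttt
Cnot10, chr9:114586128, minus strand, 2 tools: agcactcaAGACTgttataaa

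All 250 positions of the complex had an RRACH 5-mer in the genome, beside 156722 of 157233 over all coding genes. The methods tested RRACH sites, so this was given in advance. None of the 250 lay in exons of more than 1 gene, beside 2180 of the 157233. In the first set, 5 of the 9 positions had the 5-mer GGACT, 2 had the 5-mer AGACT, 1 had the 5-mer GGACA and 1 had the 5-mer GGACC. These are the 4 sequences that the tool MINES reports by default, so all 9 positions fell on one of them, beside 94.9% of the 4201 positions with at least 5 tools over all coding genes. Among all 222 WT or comparison positions of the complex, these 4 sequences made up 39.6%, beside 31.5% of the RRACH motifs in the exons of the same genes and 43.4% of the WT or comparison positions of all coding genes.

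Across the complex, WT or comparison lists held 222 positions and KO lists held 160. Both kinds of list shared 132 of them, 90 were in WT or a comparison and in no KO list, and 28 were in KO alone. The last are 17.5% of the KO positions (12 to 24.3), beside 29.1% over all coding genes. Of the WT or comparison positions, 59.5% were also in a KO list of some tool, beside 59.1% over all coding genes. Every comparison position of these genes was also in a WT list. Of the 10 genes, 9 had at least 1 listed position, beside 47.0% of all coding genes. Each of the 9 had fewer positions in KO than in WT, which held for 72.1% of the coding genes with at least 5 WT positions. Among the 70 combinations of gene and tool with both libraries, 51 had a position: 37 had more in WT, 10 the same number and 4 more in KO. Over all coding genes, 63.1% of such combinations had more positions in WT and 22.7% more in KO.

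**Figure D1:**
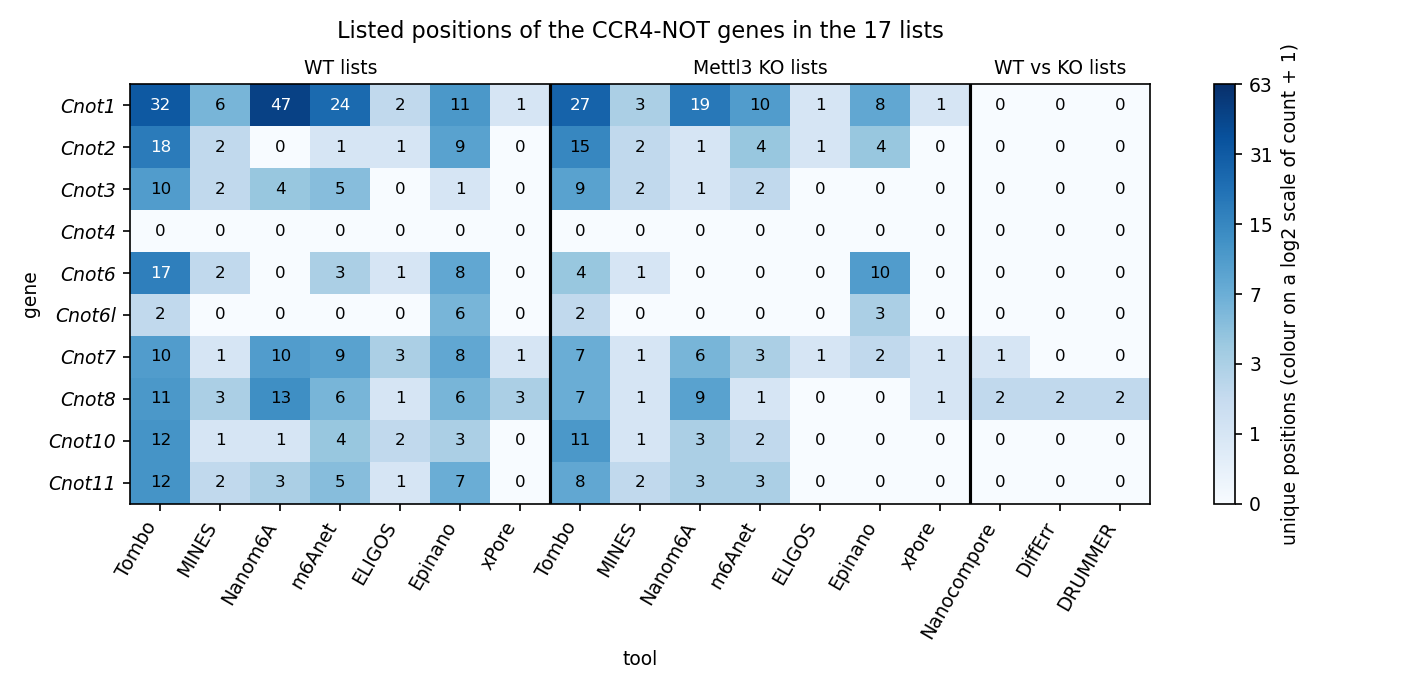
Number of unique listed positions for each CCR4-NOT gene (rows) in each of the 17 lists (columns, grouped as WT, Mettl3 KO and comparison of WT with KO), with colour on a log2 scale of the count plus 1. Cnot1 has the most positions (47 in the WT list of Nanom6A), Cnot4 has 0 in every list, and only Cnot7 and Cnot8 have positions in the comparison lists.

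Cnot8 had the strongest support across tools. The gene (ENSMUSG00000020515, chromosome 11, 58104153 to 58118594, plus strand) held 22 positions, all of them in a WT list, and 17 were also in a KO list. Tools differed in what they listed: Nanom6A had 13 positions in WT and 9 in KO, Tombo 11 and 7, m6Anet 6 and 1, and Epinano 6 and 0. ELIGOS listed 1 position in WT and 0 in KO, MINES 3 and 1, and xPore 3 and 1. Per 100 RRACH motifs in its exons, 62.9 were listed in WT (44.9 to 78.5, n = 35 motifs), a density at the 95.7 percentile of coding genes with a listed position. Cnot8 was the densest of the 10 genes. Its interval lay above the point value of each of the others by this count, which takes in the exons of all annotated transcripts of a gene. With the motifs of 1 transcript per gene, 75.9 per 100 were listed in Cnot8 (56.5 to 89.7), and this interval held the values of Cnot7 (62.1) and Cnot1 (60.8).

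The best supported positions of Cnot8 lay around its stop codon. The 3 shown above all lie in the last of its 7 exons. The GGACT at 58117533, 53 nt upstream of the stop codon in the coding sequence, was listed by all 10 tools in WT or comparison and, in the KO library, by m6Anet alone. Over all coding genes, 0.0490% of WT or comparison positions (62) were listed by all 10 tools. The AGACT at 58117653, in the 3′UTR 67 nt after the start of the stop codon, was listed by Tombo, Nanom6A, m6Anet, Epinano, xPore, Nanocompore and DRUMMER and by no tool in KO. The GGACA at 58117789, 203 nt after the start of the stop codon, was listed by 6 tools including DiffErr, and in KO by Nanom6A and xPore. These positions differed in which KO lists still held them, and no KO list held all of them.

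Cnot7, the paralog of Cnot8 (ENSMUSG00000031601, chromosome 8, 40492540 to 40515847, minus strand), held 19 positions, again all in WT lists, and 16 were also in KO. The listed density was 26.4 per 100 RRACH motifs (16.7 to 38.1, n = 72). Tombo listed 10 positions in WT and 7 in KO, Nanom6A 10 and 6, m6Anet 9 and 3, Epinano 8 and 2, ELIGOS 3 and 1, and MINES and xPore 1 in each library. For Tombo, MINES, Nanom6A, m6Anet, ELIGOS and Epinano every KO position of Cnot7 was also in the WT list of the same tool. In contrast to Cnot8, none of the 18 positions of Cnot7 that could be placed lay within 200 nt of the stop codon, but only 1 of its 29 RRACH motifs on this transcript lies in that window.

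Of the widely supported positions of Cnot7, 3 lay in the 3′UTR and 1 in exon 3. The GGACT at 40492756, 1233 nt after the start of the stop codon, was listed by Tombo, Nanom6A, m6Anet, ELIGOS, Epinano and Nanocompore and in no KO list. The AGACT at 40492849 and the GGACC at 40493608, at 1140 and 381 nt, were each listed by 5 single-mode tools. In KO the former was listed by xPore and the latter by Nanom6A and ELIGOS. The GGACT at 40507532 in exon 3, 622 nt upstream of the stop codon and 78 nt from an exon junction, differed from these in KO. Tombo, MINES, Nanom6A, m6Anet and Epinano listed it in WT, and all of these except Nanom6A listed it in KO as well.

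The coding sequences of Cnot7 and Cnot8 could be aligned over 857 nt with 71.6% identity, which allows the same place to be read in both paralogs. Cnot7 had 6 coding positions, of which 1 aligned to an RRACH motif of Cnot8. Cnot8 had 7, of which 2 aligned to an RRACH motif of Cnot7. None of these 13 positions aligned to a position listed in the other gene. The place aligned with the 10-tool position of Cnot8, and the place aligned with the exon 3 position of Cnot7, hold no RRACH motif. They are shown with the aligned 5-mer in capitals, for comparison with the first set:
Cnot7, chr8:40494022, minus strand, aligned with the Cnot8 position 58117533: cggcacagGGAATgcatatga
Cnot8, chr11:58111376, plus strand, aligned with the Cnot7 position 40507532: tccagctgGGCCTtacgttca

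In the Ccr4-type deadenylase genes no position was listed by more than 3 tools. Cnot6 (ENSMUSG00000020362, chromosome 11, 49671503 to 49712723, minus strand) held 24 WT positions and 14 KO positions, of which 8 were shared. Tombo listed 17 in WT and 4 in KO, whereas Epinano listed 8 in WT and 10 in KO, so that these tools ran in opposite directions on the same transcript. m6Anet listed 3 in WT and 0 in KO, MINES 2 and 1, ELIGOS 1 and 0, and Nanom6A and xPore none in either library. The leading position, the AGACT at 49673592, lies in the 3′UTR, 1603 nt after the start of the stop codon, and was listed by Tombo, m6Anet and ELIGOS in WT and by none in KO. Of the 24 WT positions, 20 (83.3%, 62.6 to 95.3) lay in the 3′UTR, and of the 14 KO positions 13 (92.9%, 66.1 to 99.8). This 3′UTR holds 60.6% of the RRACH motifs of the transcript.

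Cnot6l (ENSMUSG00000034724, chromosome 5, 96070333 to 96164171, minus strand) was the least densely listed of the 9 genes with a position. It had 5.43 listed per 100 RRACH motifs (2.21 to 10.9, n = 129), at the 18.8 percentile. All of its 7 WT and 5 KO positions lay in the long 3′UTR of 6847 nt, they came from Tombo and Epinano alone, and 1 was in both libraries. The leading position, the AAACT at 96076273, was listed by Tombo and Epinano in WT and by no KO list. The coding sequences of Cnot6 and Cnot6l aligned with 73.7% identity, and of the 3 coding positions of Cnot6, 1 aligned to an RRACH motif in Cnot6l and none to a listed position.

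Cnot1, the scaffold (ENSMUSG00000036550, chromosome 8, 95719451 to 95807464, minus strand), gave 32% of all positions of the complex. It held 76 WT and 50 KO positions, 46 of them shared. At 33.3 listed per 100 RRACH motifs (27.2 to 39.9, n = 228) the gene was at the 73.4 percentile, and its transcript, with 8390 nt in 49 exons, has the longest coding sequence of the 10 genes. Nanom6A listed 47 positions in WT and 19 in KO, and all 19 were among the 47. m6Anet listed 24 and 10, with 7 shared, and Tombo 32 and 27, with 21 shared. Epinano listed 11 and 8, MINES 6 and 3, ELIGOS 2 and 1, and xPore 1 in each.

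Most positions of Cnot1 lay inside the coding sequence, in exons upstream of the last one. Of the 76 WT positions, 89.5% (80.3 to 95.3) lay in the coding sequence and the same share lay within 100 nt of an exon junction, beside 82.4% and 84.8% of its 125 RRACH motifs on the transcript. The only Cnot1 position with 5 tools, the GGACT at 95752621, lies in exon 21, 120 nt from the nearest junction, and was in no KO list. An AGACC at 95744632 in exon 28, 9 nt from a junction, was listed by Tombo, Nanom6A, ELIGOS and Epinano in WT and by the same 4 tools in KO. Among the positions of the complex, this one and the exon 3 position of Cnot7 were listed by 4 tools in both libraries, and no position had more tools in KO. Its sequence, which spans the junction, is shown because the same tools listed it in both libraries:
Cnot1, chr8:95744632, minus strand, 4 tools in WT and 4 in KO: tggtttttAGACCaccaaacc

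The NOT module genes Cnot2 and Cnot3 differed from each other in their KO lists. Cnot2 (ENSMUSG00000020166, chromosome 10, 116485161 to 116581511, minus strand) had 23 WT and 20 KO positions, with 12 shared. The other 8 KO positions were in KO alone, the highest count of the 10 genes. As a share of KO positions, Cnot6l (4 of 5) and Cnot6 (6 of 14) had more. In Cnot2, Tombo listed 18 in WT and 15 in KO, and Epinano 9 and 4. m6Anet listed 1 in WT and 4 others in KO, and Nanom6A 0 and 1, so these combinations had more in KO. Its density, 39.7 per 100 RRACH motifs (27 to 53.4, n = 58), was at the 81.5 percentile, although no position had more than 3 tools. The leading position, the GGACA at 116485404, was listed by Tombo, MINES and Epinano in WT and by Tombo in KO. It was tied at 3 tools with the AGACA at 116485951 and the AGACT at 116486195. In KO the former was listed by Tombo and Epinano, and the latter was in no KO list.

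No position of the complex was listed by 3 or more tools in KO and by none in WT. The nearest to this were 2 positions of Cnot2, picked after their values were seen. The AGACA at 116494965 was listed in KO by Tombo and ELIGOS and the GAACT at 116498095 by m6Anet and Epinano, and they lie 6 and 10 nt from an exon junction.

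Cnot3 (ENSMUSG00000035632, chromosome 7, 3645268 to 3661109, plus strand) had 16 WT and 10 KO positions, and all 10 were among the 16. Tombo listed 10 in WT and 9 in KO, m6Anet 5 and 2, Nanom6A 4 and 1, MINES 2 in each and Epinano 1 and 0. The density was 19.8 per 100 RRACH motifs (11.7 to 30.1, n = 81), at the 50.1 percentile. The AGACT at 3660901, 77 nt after the start of the stop codon, was listed by Tombo, MINES and m6Anet in WT and by Tombo in KO. The GGACC at 3660810, 14 nt before the stop codon, showed the reverse order, with Tombo alone in WT and Tombo, MINES and m6Anet in KO. These neighbours in the last exon thus had 3 tools in one library and 1 in the other, in opposite directions.

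The Cnot10 and Cnot11 genes encode partners in 1 module and had similar numbers. Cnot10 (ENSMUSG00000056167, chromosome 9, 114585878 to 114640184, minus strand) had 18 WT and 15 KO positions, with 12 shared, and none of its positions had more than 2 tools in WT. Its GGACC at 114598710, 6 nt from a junction in exon 15, was listed by MINES and Nanom6A in WT and by these and Tombo in KO. Nanom6A listed 1 position of Cnot10 in WT and 3 in KO, the fourth combination with more in KO. The density was 18.8 per 100 RRACH motifs (11.5 to 28, n = 96). Cnot11 (ENSMUSG00000003135, chromosome 1, 39534992 to 39546889, plus strand) had 17 WT and 13 KO positions, with 10 shared, and 30.9 listed per 100 RRACH motifs (19.1 to 44.8, n = 55). Epinano listed 7 positions of Cnot11 in WT and 0 in KO, while Nanom6A listed 3 in each. Its GGACT at 39545139, 125 nt before the stop codon in the last exon, was listed by Tombo, Nanom6A, m6Anet, ELIGOS and Epinano in WT and by m6Anet in KO.

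Cnot4, the ubiquitin ligase subunit (ENSMUSG00000038784, chromosome 6, 35022065 to 35133724, minus strand), had 0 positions in all 17 lists. Its exons hold 138 RRACH motifs, and a count of 0 among 138 has an upper exact limit of 2.64 per 100. Since the lists give no coverage, a transcript with too few reads cannot be told apart from one without listed sites.

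The order of the genes by density was Cnot8, Cnot2, Cnot1, Cnot11, Cnot7, Cnot6, Cnot3, Cnot10 and Cnot6l. Counting all 10 genes, 22.2 of 100 RRACH motifs (222 of 1002) were listed in WT or a comparison, beside 8.96% over the exons of all coding genes, expressed in these cells or not. The median of the 9 was 26.4 per 100 RRACH motifs, beside 19.7 over all coding genes with a listed position. From Cnot2 to Cnot10 the interval of each gene overlapped that of the next, so neighbours in this stretch were not separated by counting error. Cnot8 and Cnot2 also overlapped, from 44.9 to 53.4. The interval of Cnot6l ended at 10.9, below that of Cnot10, which began at 11.5. The order depends on the motifs counted. With those of 1 transcript per gene it was Cnot8 (75.9), Cnot7 (62.1), Cnot1 (60.8), Cnot2 (46.9), Cnot3 (43.2), Cnot10 (42.5), Cnot11 (30.9), Cnot6 (25.5) and Cnot6l (6.6), so that Cnot7 moved from the fifth place to the second. The median of the 9 was then 43.2, beside 30 over all coding genes with a listed position. Cnot8 stayed at the head of both orders and Cnot6l at the end.

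**Figure D2:**
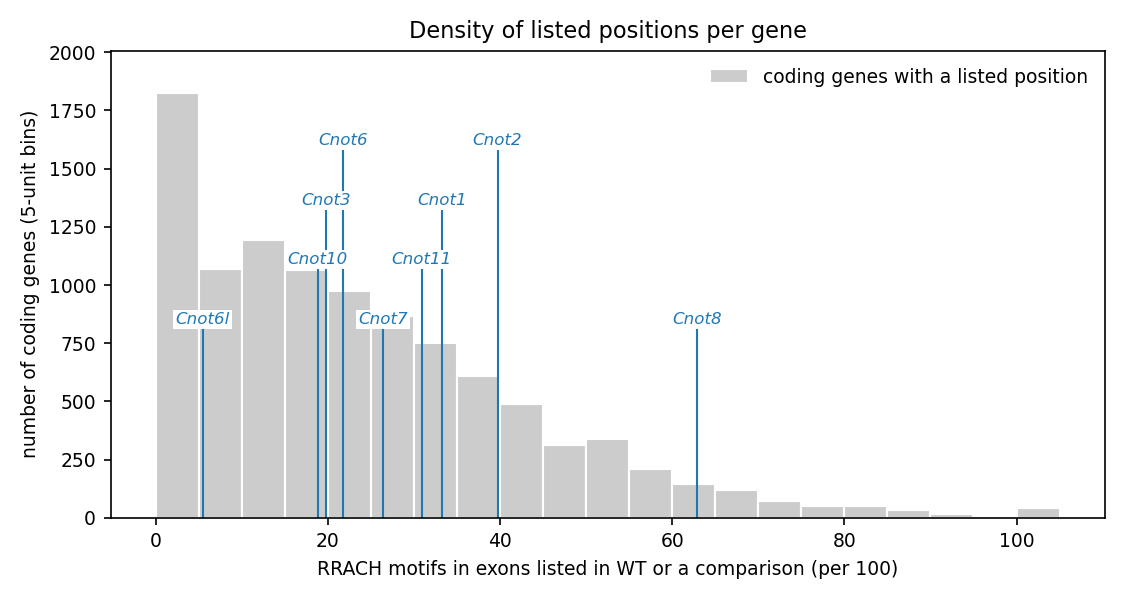
Histogram of the number of RRACH motifs listed in WT or a comparison per 100 motifs in the exons of a gene, for all coding genes with a listed position (grey bars, 5-unit bins), with the 9 listed CCR4-NOT genes as blue lines (line height has no meaning). Motifs of all annotated exons are counted. Most of the 9 genes lie between 18.8 and 39.7, Cnot8 at 62.9 and Cnot6l at 5.43.

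The share of WT positions that the same tool listed again in KO varied from tool to tool. Tombo listed 124 positions of the complex in WT and 90 in KO. Of the WT positions, 57.3% (48.1 to 66.1) were again in KO, beside 59.9% over all coding genes. For m6Anet the share was 28.1% of 57 (17 to 41.5), beside 34.5%, and for Epinano 25.4% of 59 (15 to 38.4), beside 16.6%. MINES gave 52.6% of 19 (28.9 to 75.6), beside 40.4%, ELIGOS 18.2% of 11 (2.28 to 51.8), beside 11.4%, and xPore 20% of 5 (0.505 to 71.6), beside 24.8%. In each of these 6 tools the interval held the value of all coding genes.

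Nanom6A was the exception in this range. It listed 78 positions of the complex in WT and 42 in KO. Of the WT positions, 48.7% (37.2 to 60.3) were again in KO, beside 64.9% over all coding genes. This difference rested on Cnot1: without that gene 19 of 31 positions, or 61.3%, were again in KO. In KO positions per WT position, Nanom6A had a ratio of 0.538 in the complex (0.361 to 0.793), beside 0.828 over all coding genes, and 0.742 without Cnot1. For the other 6 tools the interval of the complex held the ratio of all coding genes. These ratio intervals take the WT and KO counts as independent, although many positions were in both lists (71 for Tombo). They therefore do not give the counting error of such overlapping lists, and cannot decide which tools differed from all coding genes. The ratio was below that of all coding genes in Tombo (0.726, 0.547 to 0.96, beside 0.905), m6Anet (0.439 beside 0.581) and MINES (0.684 beside 0.702). It was above in Epinano (0.458 beside 0.338), xPore (0.6 beside 0.443) and ELIGOS (0.273 beside 0.254). Over the 7 tools together, 43.3% of 353 WT entries (38.1 to 48.7) were again in the KO list of the same tool, beside 44.5% over all coding genes.

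**Figure D3:**
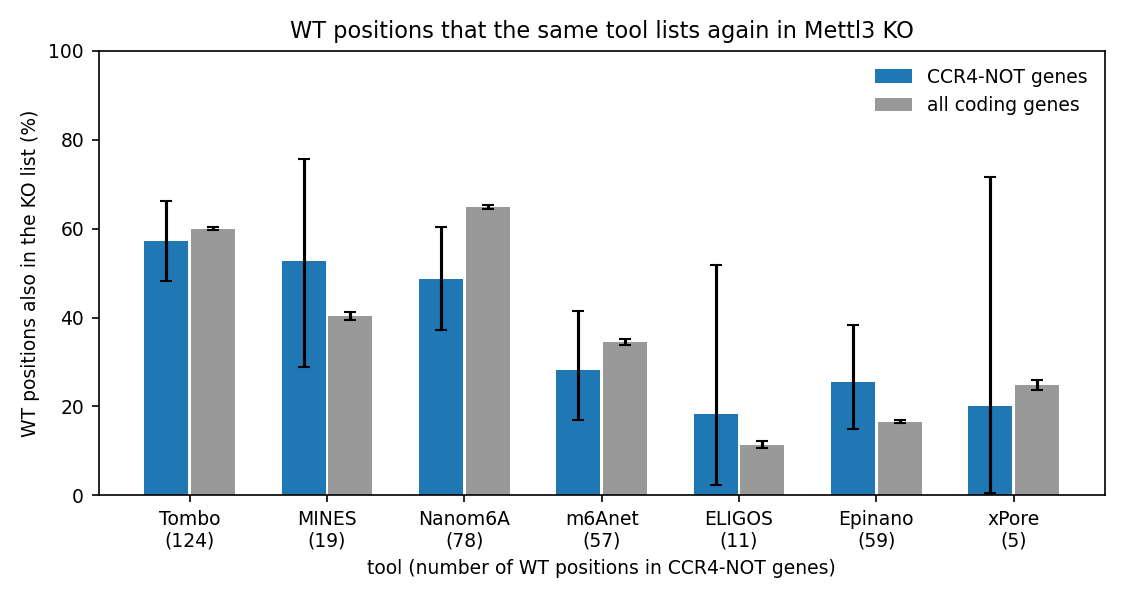
Percentage of WT positions that the KO list of the same tool also held, for the CCR4-NOT genes (blue, number of WT positions below each tool) and for all coding genes (grey), with exact 95% intervals that cover counting error only. The interval of the CCR4-NOT genes holds the value of all coding genes in every tool except Nanom6A (48.7% beside 64.9%).

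The comparison tools, which list positions that differ between WT and KO, named few positions in the complex. Nanocompore listed 3, DiffErr 2 and DRUMMER 2, together 4 positions, of which 3 were in Cnot8 and 1 in Cnot7. They made up 1.8% of the WT or comparison positions of the complex (0.493 to 4.55, n = 222), beside 2.48% over all coding genes, with 0.5% when Cnot8 was left out and 2.74% when Cnot1 was left out. Of all coding genes with a listed position, 15.3% held a comparison position, and of the 9 genes of the complex 2 did. The position listed by all 3 comparison tools was the GGACT of Cnot8 at 58117533. The same 4 positions, and no others in the complex, were listed by at least 6 of the 10 tools, beside 2.01% of the positions of all coding genes.

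At the other end of support, 139 of the 222 positions (62.6%) were listed by 1 tool, beside 65.2% over all coding genes. Tombo alone gave 63 of them, Nanom6A 29, Epinano 24, m6Anet 21, and MINES and ELIGOS 1 each. At least 5 tools listed 9 positions, beside 3.32% over all coding genes. In KO, 125 of the 160 positions (78.1%) were listed by 1 tool, beside 76.7% over all coding genes. Another 4 KO positions (2.5%) had 3 tools and 2 (1.25%) had 4 tools, beside 3.68% and 0.574%.

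**Figure D4:**
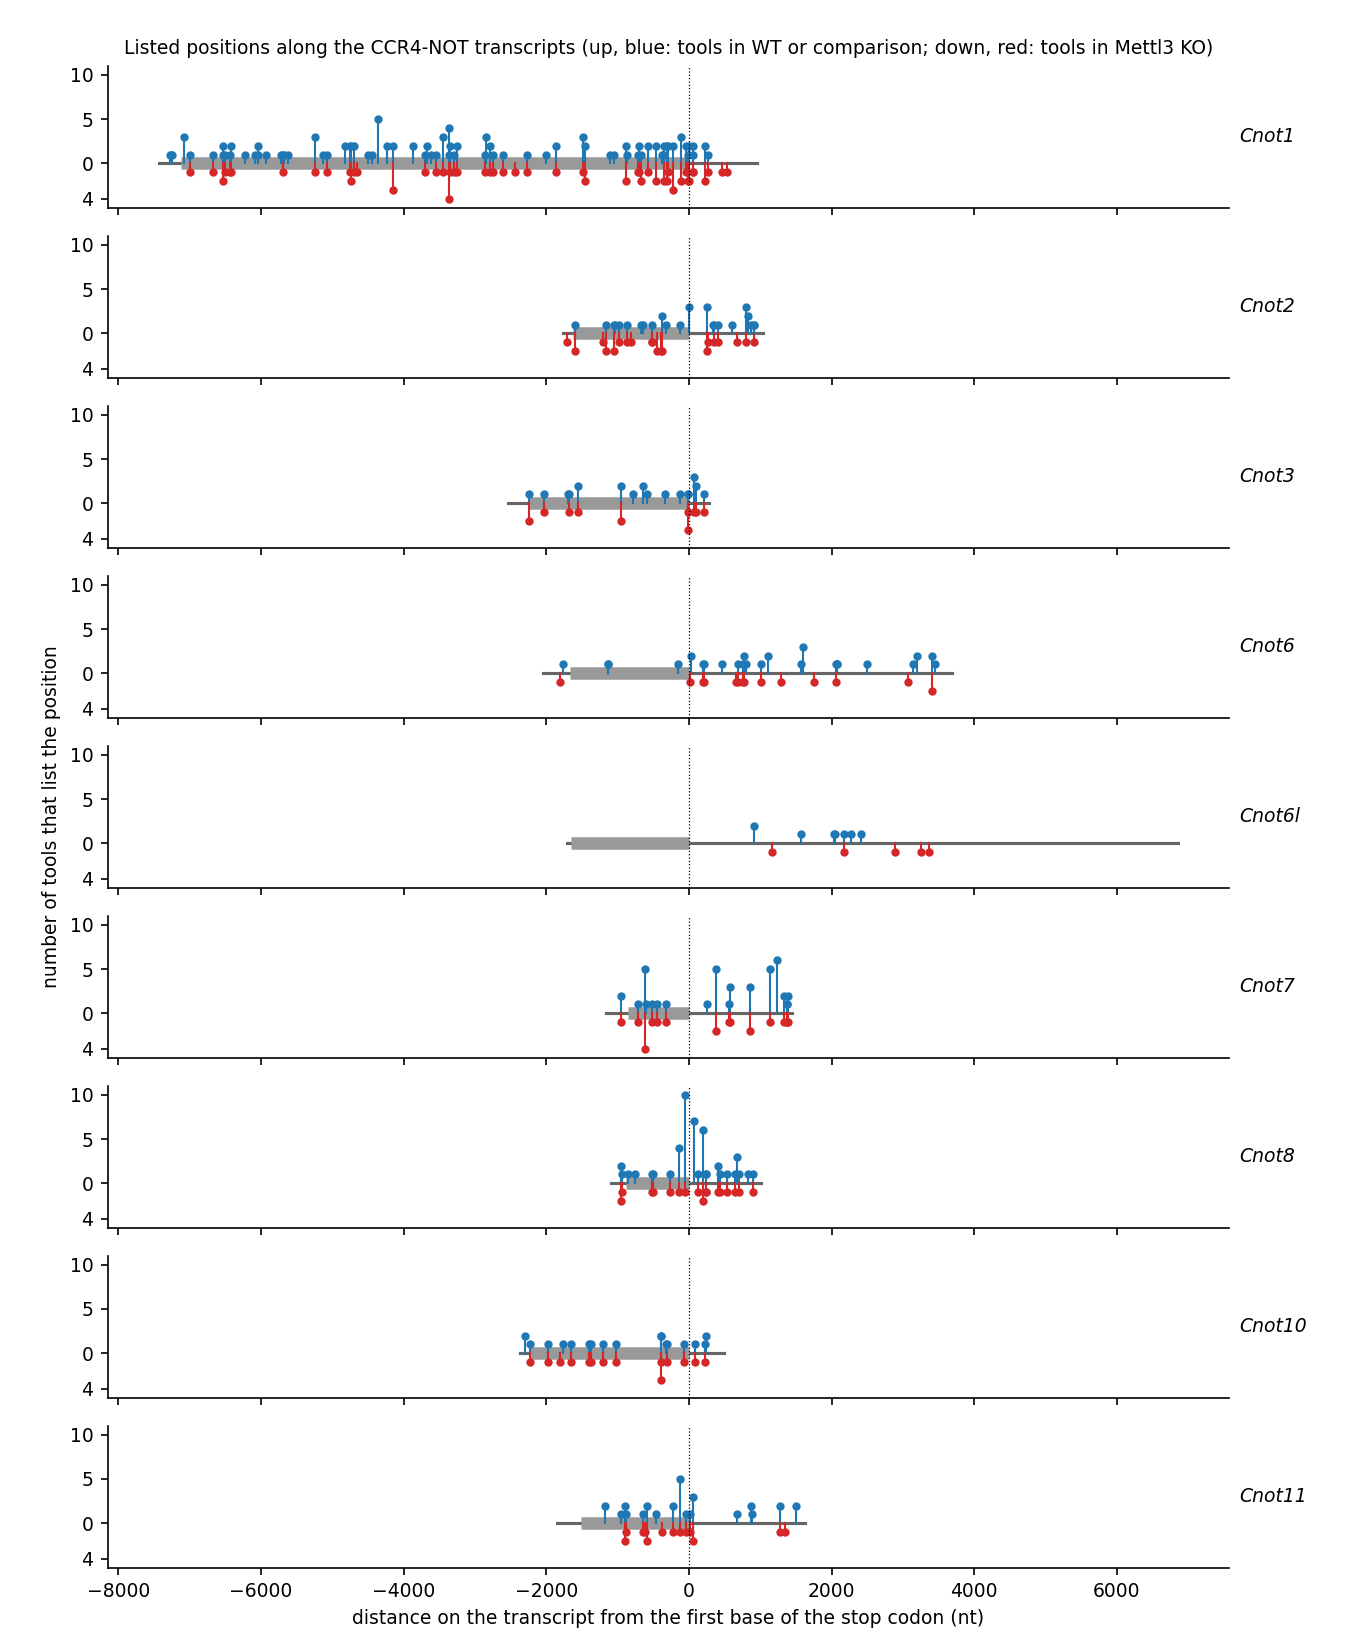
Listed positions along the transcripts of the 9 listed CCR4-NOT genes, as the distance in nt from the first base of the stop codon (x axis, dotted line at 0), with thick grey bars for the coding sequence and thin lines for the UTRs. The height gives the number of tools, upward in blue for WT or comparison lists and downward in red for KO lists. The tallest mark is the 10-tool position of Cnot8 just before its stop codon, and KO marks reach at most 4 tools.

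m6A is known to be frequent near stop codons and in long last exons. In the complex, 220 of the 222 WT or comparison positions could be placed on 1 coding transcript per gene, and 26 of them (11.8%, 7.87 to 16.8) lay within 200 nt of the stop codon. The RRACH motifs on the same transcripts lay there in 7.98% (45 of 564). Over all coding genes the share was 22.5% of positions and 12.8% of motifs, so both shares were lower in the complex. Without Cnot1, whose stop codon window holds 5.6% of its motifs, the values were 13.9% of positions and 8.66% of motifs.

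The shares also differed between positions with a KO listing and those without one. Of the placed positions with a KO listing, 20 of 131 (15.3%, 9.58 to 22.6) were within 200 nt of the stop codon, and of those without one 6 of 89 (6.74%, 2.51 to 14.1). Over all coding genes these values were 23.5% and 21%. In the complex the 2 intervals overlapped.

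By region, 60% of the placed WT or comparison positions of the complex lay in the coding sequence, 36.4% in the 3′UTR and 3.64% in the 5′UTR, beside 52.7%, 42% and 5.32% of the RRACH motifs. Over all coding genes 56.7% of positions lay in the coding sequence and 40.2% in the 3′UTR, beside 54.4% and 40.7% of motifs. Last exons held 40.5% (33.9 to 47.3), beside 44.7% of motifs, and over all coding genes 52% of positions and 49.4% of motifs. These shares of the complex depended on Cnot1. Without it, the coding sequence held 44.4% of positions and 44.2% of motifs. The 3′UTR then held 52.1% and 50.3%, and last exons held 56.9% and 53.3%. The genes differed widely: all 7 positions of Cnot6l and 87.5% of those of Cnot6 lay in the last exon, but 9.21% of those of Cnot1. Of the RRACH motifs on these transcripts, the last exon held 76.4% in Cnot6l, 62.8% in Cnot6 and 14.4% in Cnot1.

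The share of positions near exon junctions was close to that of the motifs. Within 100 nt of a junction lay 62.3% of the positions of the complex (55.5 to 68.7), beside 56.4% of its motifs, a value inside that interval. Over all coding genes the shares were 45.6% of positions and 43.6% of motifs. In the complex without Cnot1 the share was 47.9%, beside 48.3% of motifs. Of the 9 positions with at least 5 tools, 3 were within 100 nt of a junction, at 71, 78 and 95 nt, and 7 were in the last exon. Over all coding genes 7.95% of the positions with at least 5 tools lay within 100 nt of a junction and 87.7% in the last exon.

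GGACT made up 11.3% of the 222 positions (7.42 to 16.2), beside 12.0% over all coding genes, and GGACA made up 15.3% (10.8 to 20.7), beside 14.6%. GGACA was the most frequent 5-mer both in the complex and over all coding genes. Of the motifs in the exons of the 9 genes, 43.1% of the GGACT and 44.2% of the GGACA were listed. The other RRACH 5-mers ran from 14.5% (GAACA) to 27.7% (AGACA). These shares were not computed over all coding genes. In KO, GGACA made up 18.1% and GGACT 8.75% of the 160 positions, beside 15.3% and 9.75% over all coding genes.

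The gene whose listing pattern was compared with all others was Cnot8, the member with the most comparison positions. Over the 17 lists, the non-member genes closest to it by the summed absolute difference of log2(count + 1) were Cox7a2l (4.55), Puf60 (5.17) and Cd164 (5.18), beside a median distance of 23.2 over 10224 genes.

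Beyond the 10 subunits, 38 other genes of mRNA deadenylation and decay were taken as a list. It comprised the subunits Cnot9 and Tnks1bp1, the deadenylases Pan2, Pan3 and Parn, adaptors of the Tob and Btg families, RNA-binding proteins that recruit CCR4-NOT, microRNA effectors, decapping factors and poly(A)-binding proteins. Of the 38, 30 had a listed position, with 476 WT or comparison positions and 394 KO positions in all. Their median density was 18.1 per 100 RRACH motifs, beside 26.4 for the 9 listed genes of the complex and 19.7 over all coding genes. The same tool listed 46.3% of their WT entries again in KO, beside 43.3% in the complex.

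Few positions of these genes had wide support. Comparison tools listed 7 of the 476 positions (1.47%), beside 2.48% over all coding genes. They lay in Tob1 (2), Ythdf2 (2) and Pabpc1 (3), genes named here after their values were seen, and these are 3 of 30 listed genes, beside 15.3%. None of the 7 was listed by all 3 comparison tools, and 1 position, in the adaptor gene Tob1, was listed by at least 6 tools, beside 2.01%. Ythdf2, the m6A reader that recruits the complex, had 21 WT or comparison positions and 27 KO positions, that is, more in KO. Of the subunits in this list, Cnot9 had 17 WT positions, 15 KO positions and 0 comparison positions, and Tnks1bp1 had 0 WT positions and 2 KO positions.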

How the data were processed

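DRS libraries of poly(A) RNA were made by the authors from mouse embryonic stem cells, 1 for WT and 1 for Mettl3 KO. The authors basecalled reads with Guppy v5.0.7, aligned them with Minimap2 v2.17 to the GENCODE VM18 transcriptome of GRCm38 (mm10), ran Tombo v1.5.1, MINES, Nanom6A v2.0, m6Anet v1.0, ELIGOS v2.0.1, Epinano v1.2.0, xPore v2.0, Nanocompore v1.0.0, DiffErr v0.2 and DRUMMER, and converted transcript coordinates to genome coordinates. The methods tested RRACH sites with more than 5 reads (at least 20 for m6Anet). The methods choose a cut-off for each tool, and whether the deposited lists used it is not given in the sources used here. The deposited values are positions, strands and transcript or gene names, with no score or coverage, so depth and precision per site are unknown (the study gives nearly equal total read numbers for both libraries), and a position missing from a list may have had too few reads.

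What follows was computed here. Unique positions of the 17 lists were assigned to genes by same-strand overlap with exons of GENCODE M21, the release at hand on the same build, and 322309 of 322425 transcript identifiers were found. Of these lines, 96.8% had a listed transcript position within 1 nt of the computed one. Positions were placed on 1 coding transcript per gene, the one on which most of its positions are listed, and a tool counted once in WT or comparison. Density is the number of listed RRACH motifs over all RRACH motifs in exons. Intervals are exact Clopper-Pearson 95% intervals. Those of the ratio of KO to WT positions come from the KO count as a share of both counts together, taken as independent. Coding sequences of paralogs were aligned with Biopython 1.88. The members, the pathway list and the rules were chosen with earlier results of these data known. Sites named were, per gene, the position with the most tools (ties in genomic order), and all positions with at least 6 tools, with all 3 comparison tools, with at least 4 tools in both libraries, or with at least 3 tools in KO and none in WT. Other positions were named after their values were seen. Libraries were grouped by the labels, and no test was run since each group has 1 library. The placement code and intervals were tested on simulated data. Alternatives changed the assignment, matching, tools, windows, transcripts and motif background. Python 3.11.15 with numpy 2.4.6, scipy 1.17.1 and pysam 0.24.0, samtools 1.23.1 and matplotlib 3.10.9 were used.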

Additional observations from a re-analysis of the deposited data

How the results depend on the processing

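Of 65 alternative values for the 8 summary results of the complex, 13 moved, meaning that a count changed by over 1.5 times or that a share or density left the exact 95% interval of its reported value, and 52 did not. A share that rests on few positions has a wide interval, so it can change several-fold without being counted as moved. Counting 1 site per line gave 443 in place of 222 WT or comparison positions and 265 in place of 160 KO positions, since a position then counts once per tool and transcript. Without Tombo, KO positions numbered 95, positions with at least 6 tools 2 in place of 4, and the density was 15.9 in place of 22.2 per 100 RRACH motifs. With the motifs of the placement transcript alone it was 35.7, and the order of the genes changed. A limit of at least 5 tools gave 9 positions. The share within the stop codon window was 7.73% at 100 nt and 25.5% at 400 nt, in place of 11.8%. With the KO list of any tool, 63.5% of WT entries were again in KO, in place of 43.3%. Leaving out a gene was chosen after seeing the data: without Cnot1, WT or comparison positions numbered 146 and the density was 18.9, and without Cnot8, 1 position had at least 6 tools.

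Assignment by the listed transcript name, positions in several genes, RRACH positions alone, lists without MINES, joining within 5 bp and the longest coding transcript left the results they were applied to unmoved. The GGACT share (11.3%) ran from 11% to 13.2%. The comparison share (1.8%) was 2.52% without Tombo, 2.74% without Cnot1 and 0.5% without Cnot8, each within its wide interval. No paired analysis was possible because each condition has 1 library and no test was run. No replicate could be left out. Without coverage, neither the reads behind a listed position nor those behind an unlisted one, Cnot4 included, could be assessed.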
